A study of Mus musculus with 15 samples.

Results

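The sodium-potassium pump of the plasma membrane was examined through the genes of its beta subunits, *Atp1b1*, *Atp1b2* and *Atp1b3*, and of its Fxyd regulator *Fxyd5*, 4 of 21669 genes with a symbol. They were taken by symbol, by a rule that used no measured value, but with earlier results of these data known. The study itself names *Atp1b1* among primed genes whose expression was enhanced by the EZH2 inhibitor GSK343 in this RNA-seq. It calls a gene primed if its promoter was accessible, without expression, in undivided B cells in vivo, which are not among the samples used here. The ranks and p-values of *Atp1b1* are therefore not those of a gene chosen blind. RNA-seq had been made from nB (naive splenic B cells, CD43-, not stimulated), actB (activated B cells, B220+GL7+CD138-) and Pb (plasmablasts, CD138+), all from wild-type female C57BL/6J mice of 6 to 9 weeks. The actB and Pb were sorted after 3 days in culture with LPS, IL2 and IL5 and with either the solvent DMSO or 2 μM GSK343, a small molecule inhibitor of the histone methyltransferase EZH2. For the 3 Pb GSK343 libraries the labels name IL6 where the other cultures have IL5, whereas the study's text names IL5 for all cultures. If the label is right, the cytokine cannot be told apart from the drug in comparisons with that group. Each of the 5 groups had 3 libraries, but nB replicates 1 and 2 differed by less than the sampling noise and were counted as 1 library, so that nB had n = 2 and each other group n = 3. The design compares what the inhibitor did in each cell type and how the cell types differ. Replicate 2 stood apart in every cultured group: the chi-square of the reads per degree of freedom was 7.62 to 29.7 between it and another replicate of its group and 3.57 to 6.07 between replicates 1 and 3. Results are therefore also given for replicates 1 and 3 alone, with n = 2 in each cultured group. That choice was made after the data were seen and keeps the libraries most alike, which can make p-values smaller.

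The pump uses ATP to move sodium out of the cell and potassium in, which keeps the gradients that many other carriers run on. Its alpha subunit does the pumping. A beta subunit, a glycoprotein that crosses the membrane once, is needed for the pump to fold and reach the cell surface, and Fxyd proteins are small membrane proteins that bind the pump and adjust its activity. Beta 1, encoded by *Atp1b1*, is the form known from kidney and most other tissues, beta 2 (*Atp1b2*) is best known from glia, and beta 3 (*Atp1b3*) is also the lymphocyte surface antigen CD298.

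All 4 genes are protein coding and lie on the minus strand of mm9. *Atp1b1* (Entrez 11931) spans chr1:166367398-166388486, *Atp1b2* (Entrez 11932) chr11:69413238-69419444, *Atp1b3* (Entrez 11933) chr9:96233099-96264766 and *Fxyd5* (Entrez 18301) chr7:31817741-31827500 in GENCODE vM1. No exon of another annotated gene overlapped an exon of these genes, and *Gm17562*, on the other strand, overlapped the body of *Atp1b3* outside its exons. The promoter sequences of the beta subunit genes with a called response are shown, since their transcripts differed in the size of their response. Each is the 250 bases before a RefSeq start, taken from the table for GRCm38.p6 and matched once and exactly to mm9, and is printed on the gene's own strand. Capitals mark the motif GGGCGG, the motif CCAAT and the motif TATAAA with its variant TATATA, on either strand, and no marked motif overlapped another.
Atp1b1, chr1:166388487-166388736: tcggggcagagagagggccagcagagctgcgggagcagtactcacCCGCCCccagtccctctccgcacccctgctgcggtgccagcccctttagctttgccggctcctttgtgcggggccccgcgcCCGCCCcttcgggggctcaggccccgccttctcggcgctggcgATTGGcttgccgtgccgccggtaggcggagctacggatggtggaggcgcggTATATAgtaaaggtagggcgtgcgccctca
Atp1b3, chr9:96264851-96265100: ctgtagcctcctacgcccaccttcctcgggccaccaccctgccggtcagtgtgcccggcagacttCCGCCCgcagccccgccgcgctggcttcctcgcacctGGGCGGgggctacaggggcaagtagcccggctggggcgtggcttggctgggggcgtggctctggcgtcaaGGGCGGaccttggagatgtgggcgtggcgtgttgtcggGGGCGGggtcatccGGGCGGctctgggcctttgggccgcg

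The *Atp1b1* window ended at the GENCODE start of the gene. It held 2 copies of GGGCGG, which began 205 and 124 bases before the start, 1 CCAAT 81 bases before it and 1 TATATA 30 bases before it. The *Atp1b3* window lay 84 bases upstream of the GENCODE start and held 5 copies of GGGCGG, at 185, 148, 78, 40 and 26 bases, and neither of the other motifs. RefSeq has another *Atp1b3* start, whose window (chr9:96264135-96264384, not printed) held none of the 3 motifs, 35 CG pairs and 76.8% G and C. Of 32851 promoters of this length, 32.742% held GGGCGG, 33.85% CCAAT and 15.601% TATAAA or TATATA, and 1.933% held at least 5 copies of GGGCGG. Both windows were rich in G and C (70.4% and 73.6%, against a median of 52.4%) and each held 24 CG pairs, a number that 11.978% of promoters reached. A match of letters is a description and was not set against any measurement of binding.

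Levels were expressed as RPKM, the deposited RPM (reads scaled to a library total of 1000000) per kilobase of the gene, which allows genes to be compared. *Atp1b1* and *Atp1b3* were the main beta transcripts, *Fxyd5* was present in all groups at 15.8 to 29.7 RPKM, and *Atp1b2* was near the detection limit. A gene was tested if it had at least 1 RPKM in at least 3 columns, as 11299 genes did. *Atp1b1*, *Atp1b3* and *Fxyd5* passed and *Atp1b2* did not. The other genes of the family that were examined, *Atp1b4*, *Fxyd1*, *Fxyd2*, *Fxyd3*, *Fxyd4*, *Fxyd6* and *Fxyd7*, all failed it, with at most 22 reads in any library, and *Fxyd3* had 0 reads in all libraries, where 0 allows up to 3 reads (0.114 to 0.1545 RPM).

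**Figure D1:**
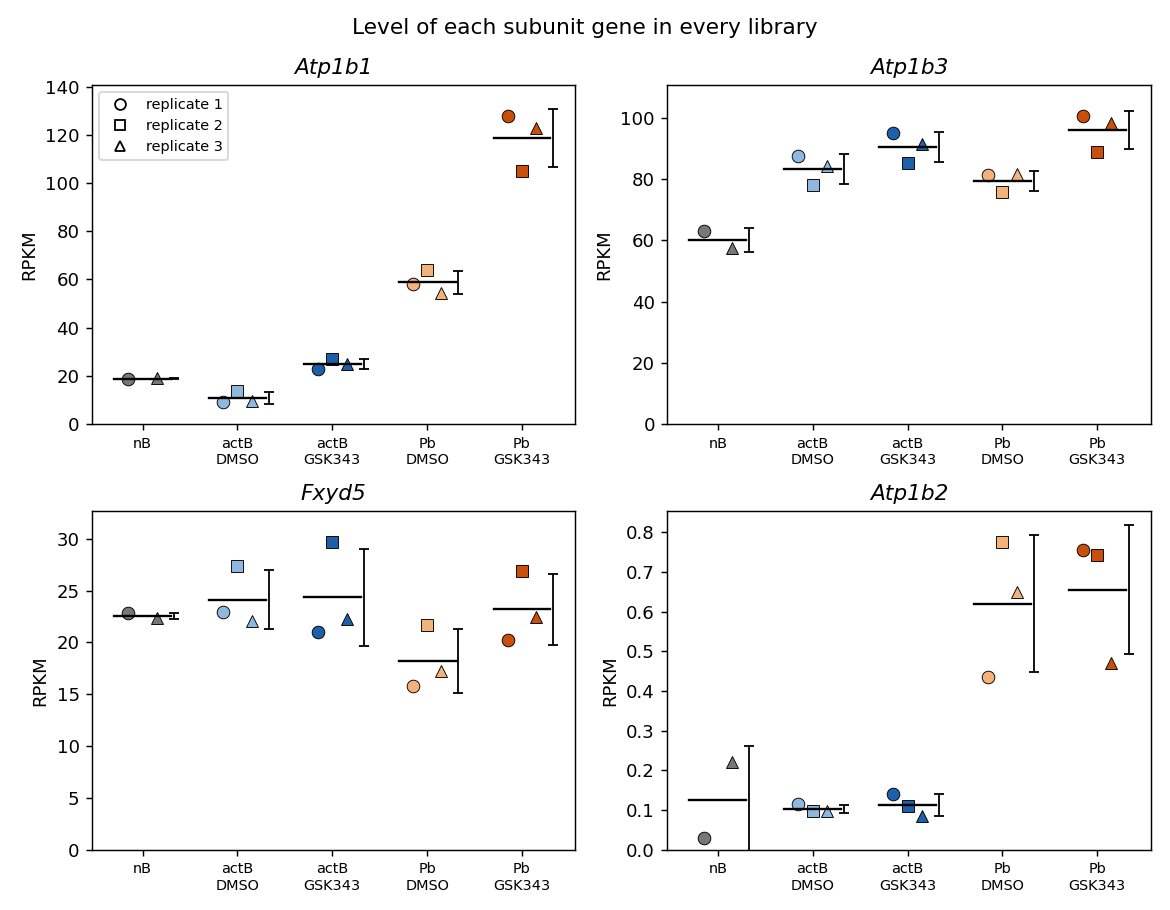
RPKM (y axis, each panel from 0) of the 4 genes in the 14 libraries by group (x axis). Each symbol is 1 library with its shape giving the replicate number, the line is the group mean and the bar beside it the SD (nB n = 2, with replicates 1 and 2 merged and drawn as 1, others n = 3; the lower end of the *Atp1b2* bar in nB is cut off at 0). *Atp1b1* was lowest in actB DMSO and highest in Pb GSK343, at 9.17 to 13.8 and 105 to 128 RPKM.

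*Atp1b1* was higher with GSK343 in both cell types and higher in Pb than in actB. In actB it stood at 9.17, 13.8 and 9.56 RPKM with DMSO (replicates 1, 2 and 3) and at 22.7, 26.9 and 25.0 with GSK343. In Pb it stood at 58.0, 64.0 and 54.4 RPKM with DMSO and at 128, 105 and 123 with GSK343. In both cell types every GSK343 library lay above every DMSO library, as did 18.3% of the genes in actB and 18.8% in Pb.

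The rise of *Atp1b1* with GSK343 in actB was 1.20 on the scale of log2(RPKM + 0.25) (SE 0.13, 95% interval 0.91 to 1.49), a 2.30-fold change, with an adjusted p of 3.78e-04 by limma. It was the 38th highest difference of the 11299 genes, of which 8.2% were called higher and 2.16% lower. In Pb the rise was 1.01 on that scale (SE 0.13, interval 0.72 to 1.3), 2.01-fold, with an adjusted p of 7.18e-04 by limma, and was the 77th highest, among 7.9% of genes called higher and 5% lower. With libraries of the same number set side by side, the GSK343 library was 2.47, 1.95 and 2.61 times the DMSO library in actB and 2.20, 1.64 and 2.26 times in Pb, so that number 2 gave the smallest ratio in both. With replicates 1 and 3 alone the differences were 1.32 in actB (adjusted p = 3.07e-05 by limma) and 1.15 in Pb (adjusted p = 2.92e-05 by limma). That fit, chosen after the data were seen, called 1740 genes in actB and 1977 in Pb, against 1170 and 1458 with all replicates. With all replicates, the difference between the effects on *Atp1b1*, Pb minus actB, was -0.19 (interval -0.60 to 0.22, adjusted p = 0.909 by limma), which does not show that the effects are alike. Only 0.248% of all genes were called in this comparison of effects.

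Other cell types were followed through lists of marker genes, as sums of their RPKM. In bulk samples fewer cells of a type and less RNA per cell cannot be told apart. The summed level of 5 plasmablast markers (*Sdc1*, *Prdm1*, *Xbp1*, *Irf4* and *Jchain*) was 485 to 522 RPKM in actB DMSO and 549 to 669 in actB GSK343. Of these, *Sdc1*, which encodes CD138, averaged 0.665 RPKM in actB DMSO and 0.965 in actB GSK343. In Pb it averaged 29.7 RPKM with DMSO and 55.3 with GSK343. The sum of these plasmablast markers in Pb was 3065 to 3215 RPKM with DMSO and 3129 to 3396 with GSK343. *Prdm1* and *Irf4* averaged lower in Pb with GSK343. The sum of 9 myeloid markers, mostly *Itgam*, was 4.14 to 5.44 RPKM in actB DMSO and 8.31 to 14.1 in actB GSK343, with 3 of the 9 at 0 in each. In Pb the sum of 5 naive B cell markers was 27.6 to 37.5 RPKM with DMSO and 14.5 to 26.5 with GSK343, that of 4 markers of all B cells 873 to 900 and 736 to 859, and that of the myeloid markers 0.484 to 0.932 and 1.01 to 1.26. Their part in the results with GSK343 was not tested.

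**Figure D2:**
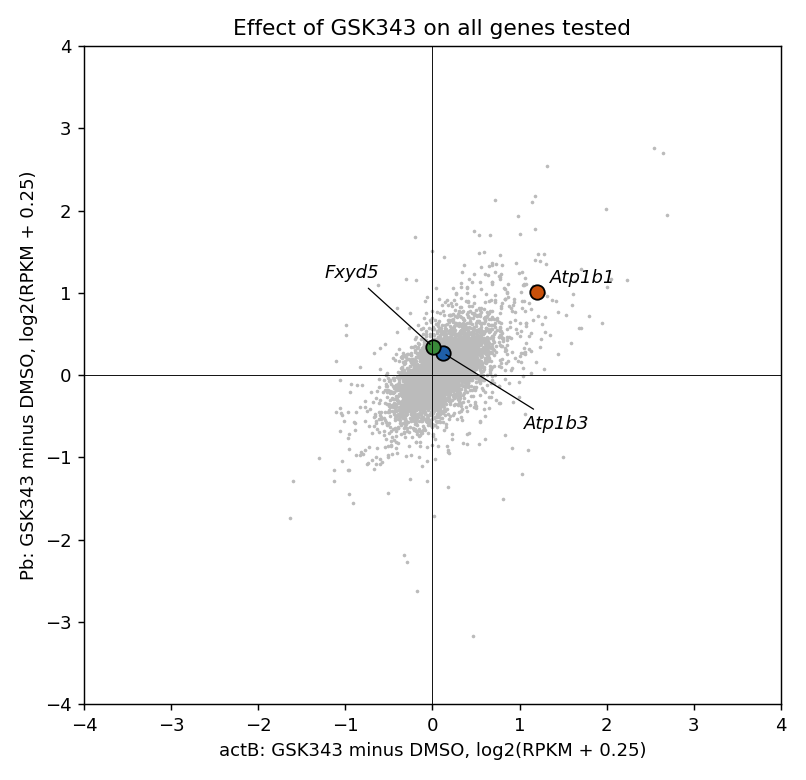
Difference between GSK343 and DMSO in log2(RPKM + 0.25) in actB (x axis) and in Pb (y axis) for the 11299 genes tested, each a grey point, with the 3 tested subunit genes in colour. *Atp1b1* lay at 1.20 and 1.01, while *Atp1b3* (0.12 and 0.27) and *Fxyd5* (0.0037 and 0.34) lay inside the cloud.

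Between cell types, *Atp1b1* was lower in actB DMSO than in nB, higher in actB GSK343 than in nB, and highest in Pb. The nB libraries stood at 18.6 (replicates 1 and 2 merged) and 19.1 RPKM. They lay above all 3 actB DMSO libraries, as for 39.2% of genes. All actB GSK343 libraries lay above the nB libraries, an order for which the share of genes was not computed. The fall from nB to actB DMSO was -0.81 on the log2 scale (SE 0.15, adjusted p = 2.84e-04 by limma), in a comparison where 36.3% of genes were called lower and 40.9% higher. The rise from actB DMSO to Pb DMSO was 2.43 (SE 0.13, interval 2.14 to 2.72), 5.40-fold, with an adjusted p of 7.27e-09 by limma. It was the 106th highest difference of all genes, where 27.3% were called higher and 42.4% lower. Against nB, Pb DMSO was higher by 1.63 (adjusted p = 3.81e-07 by limma, with 39.5% of genes called higher and 41.1% lower). With GSK343 in both, Pb exceeded actB by 2.24 (adjusted p = 1.30e-08 by limma, with 26.4% called higher and 44.2% lower). These stage comparisons share their actB DMSO, Pb DMSO or nB libraries. From lowest to highest the order of group means was actB DMSO (10.8 ± 2.55 RPKM, SD), nB (18.8 ± 0.312), actB GSK343 (24.9 ± 2.12), Pb DMSO (58.8 ± 4.85) and Pb GSK343 (119 ± 12). Of the neighbouring groups, actB DMSO lay wholly below nB, as for 39.2% of genes, and Pb GSK343 wholly above Pb DMSO, as for 18.8%. For the other neighbouring pairs the share of genes so separated was not computed.

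The cell types matched their gates in the marker sums. Plasmablast markers summed to 3065 to 3396 RPKM in Pb against 485 to 669 in actB and 214 to 231 in nB, and naive B cell markers to 1406 to 1419 in nB against at most 311 in the cultured cells. The sum of 6 markers of activated and germinal centre B cells was 315 to 367 RPKM in actB, 104 to 122 in nB and 69.4 to 84.8 in Pb, and that of 4 markers of all B cells was 2770 to 2867 in nB, 1437 to 1681 in actB and 736 to 900 in Pb. The nB libraries also held markers of other cells. Their sums were 195 to 239 RPKM for myeloid cells, 24.1 to 26.1 for 7 T and NK cell markers, 82.4 to 303 for 4 red cell markers and 4.19 to 4.42 for 4 platelet markers, against at most 14.1, 0.653, 18.9 and 0.865 in any cultured library. Their part in the comparisons with nB was not tested.

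*Atp1b3*, the other abundant beta transcript, varied far less. It stood at 62.9 and 57.4 RPKM in nB, at 87.6, 78.1 and 84.3 in actB DMSO and at 94.9, 85.3 and 91.4 in actB GSK343. In Pb the libraries gave 81.2, 75.6 and 81.6 RPKM with DMSO and 101, 88.9 and 98.4 with GSK343. The GSK343 libraries lay above the DMSO libraries in Pb, as for 18.8% of genes, whereas in actB replicate 2 with GSK343 lay below replicate 1 with DMSO.

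In Pb, *Atp1b3* was higher with GSK343 by 0.27 on the log2 scale (SE 0.065, interval 0.13 to 0.41), 1.21-fold, with an adjusted p of 0.0184 by limma. Leaving out 1 of these 6 libraries in turn removed the call 3 times, without Pb DMSO replicate 2 (adjusted p = 0.0645 by limma), Pb GSK343 replicate 1 (0.0789) or Pb GSK343 replicate 3 (0.0748), and the difference lay between 0.23 and 0.32. In actB the difference was 0.12 (SE 0.065, interval -0.022 to 0.26, adjusted p = 0.288 by limma). With the replicate block its adjusted p was 0.0606 over all groups and 0.0146 over the cultured groups alone, a fit chosen after the data were seen that called 14.7% of genes higher. The interaction was 0.15 (interval -0.051 to 0.35, adjusted p = 0.742 by limma). Libraries of the same number gave ratios of 1.08, 1.09 and 1.08 in actB and of 1.24, 1.17 and 1.21 in Pb. With replicates 1 and 3 alone the differences were 0.12 in actB (adjusted p = 0.161 by limma) and 0.29 in Pb (adjusted p = 0.00568 by limma). That fit was chosen after the data were seen and called more genes in both cell types than the fit of all replicates.

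*Atp1b3* was lower in nB than in the cultured cells with DMSO. The difference was 0.47 to actB DMSO (SE 0.073, adjusted p = 7.11e-05 by limma, with 40.9% of genes called higher). To Pb DMSO it was 0.40 (SE 0.073, adjusted p = 2.31e-04 by limma, with 39.5% called higher). The nB libraries lay below all libraries of actB DMSO and Pb DMSO. Such a separation was seen in 44.2% of genes for actB DMSO above nB and in 42.7% for Pb DMSO above nB. Between Pb DMSO and actB DMSO it was -0.068 (interval -0.21 to 0.075, adjusted p = 0.375 by limma), and its sign turned under median scaling and RLE factors (0.043 and 0.045). With GSK343 in both cell types it was 0.083 (interval -0.059 to 0.23, adjusted p = 0.275 by limma), which passed with edgeR under TMM factors at 0.17 (adjusted p = 0.0306, with 31.3% of genes called higher) and with the replicate block at 0.17 (adjusted p = 0.00340, with 33.9%). From lowest to highest the means were 60.1 ± 3.91 RPKM in nB, 79.5 ± 3.32 in Pb DMSO, 83.3 ± 4.83 in actB DMSO, 90.6 ± 4.86 in actB GSK343 and 96.0 ± 6.26 in Pb GSK343, and all neighbours above nB overlapped.

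*Atp1b1* and *Atp1b3* changed by different amounts, and in opposite directions from nB to actB DMSO, so the makeup of the beta transcripts changed from group to group. *Atp1b1* made up 22.8% and 24.9% of the summed RPKM of the 3 beta genes in nB, 9.47 to 15% in actB DMSO and 19.2 to 23.9% in actB GSK343. In Pb its share was 39.8 to 45.6% with DMSO and 53.9 to 55.8% with GSK343. Thus *Atp1b3* was the more abundant beta transcript in every nB, actB and Pb DMSO library, and *Atp1b1* was the more abundant in the 3 Pb GSK343 libraries, where the ratio of *Atp1b1* to *Atp1b3* was 1.18 to 1.27. The summed beta level was 79.1 ± 3.46 RPKM (SD, n = 2) in nB and 94.3 ± 2.47, 116 ± 2.83, 139 ± 2.0 and 215 ± 18.3 (SD, n = 3) in actB DMSO, actB GSK343, Pb DMSO and Pb GSK343. These sums and shares are given without a test, and they rest on the deposited gene lengths (2422 bases for *Atp1b1* and 1830 for *Atp1b3*, against 2422 and 1874 in the exons of GENCODE vM1).

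**Figure D3:**
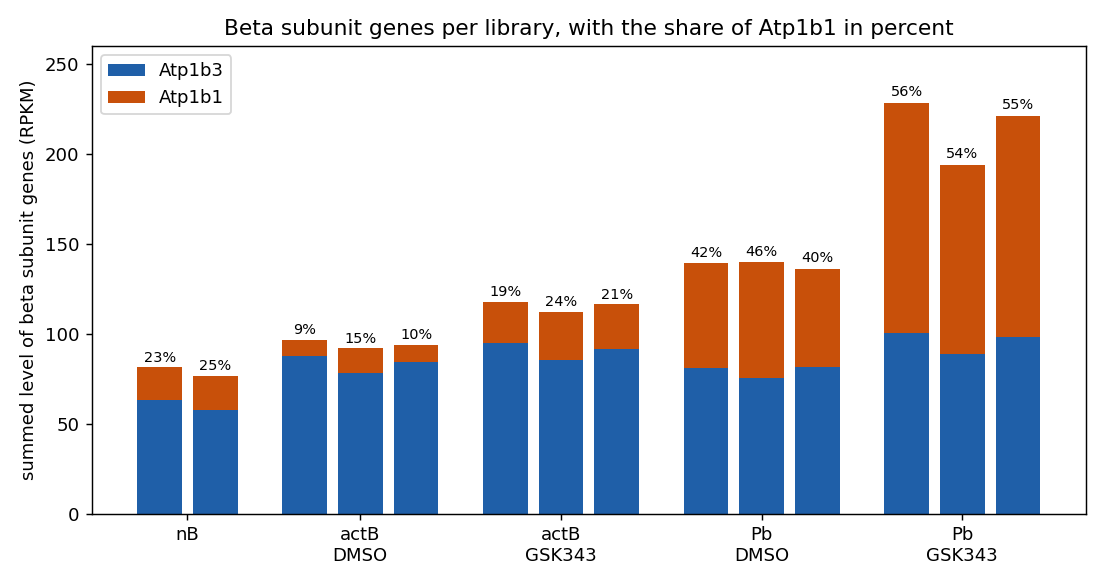
Summed RPKM of the beta subunit genes (y axis) in each of the 14 libraries (bars, in order of replicate within each group on the x axis), split into *Atp1b3* and *Atp1b1*, with the share of *Atp1b1* above each bar. *Atp1b2*, at most 0.553% of the sum, is left out of the bars, and the share of *Atp1b1* went from 9.47 to 15% in actB DMSO to 53.9 to 55.8% in Pb GSK343.

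*Atp1b2* was close to the detection limit, with higher counts in Pb. The reads counted were 2 and 15 in nB, 8, 7 and 7 in actB DMSO and 11, 8 and 6 in actB GSK343. In Pb they were 25, 47 and 40 with DMSO and 51, 44 and 27 with GSK343. Every Pb library exceeded every actB and nB library, whereas DMSO and GSK343 libraries overlapped in both cell types. Such a separation was seen in 28.6% of the genes tested for Pb DMSO above actB DMSO, 42.7% for Pb DMSO above nB and 27.7% for Pb GSK343 above actB GSK343. In RPKM the means were 0.125 ± 0.136 in nB, 0.103 ± 0.0096 in actB DMSO, 0.112 ± 0.028 in actB GSK343, 0.620 ± 0.173 in Pb DMSO and 0.656 ± 0.161 in Pb GSK343.

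Tested without the filter on expression, over 18752 genes and chosen after the data were seen, *Atp1b2* was higher in Pb DMSO than in actB DMSO by 1.28 (SE 0.20, adjusted p = 2.30e-04 by limma, with 19.5% of genes called higher) and than in nB by 1.24 (adjusted p = 4.44e-04, with 27.2% called higher). With GSK343 the difference between Pb and actB was 1.31 (adjusted p = 1.88e-04 by limma, with 18.8% called higher). The size at so few reads depends on the scale: for Pb DMSO against actB DMSO it was 0.55 with a pseudocount of 1, and 2.65 with edgeR. The differences with GSK343 were 0.034 in actB (interval -0.41 to 0.48) and 0.061 in Pb (interval -0.38 to 0.51), each with an adjusted p of 1 by limma, and a change of this size was not detectable at this depth.

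*Fxyd5*, also known as dysadherin for its effect on cell adhesion, stayed within a narrow range. The libraries gave 22.8 and 22.4 RPKM in nB, 23.0, 27.4 and 22 in actB DMSO and 21.1, 29.7 and 22.3 in actB GSK343. In Pb they gave 15.8, 21.7 and 17.2 RPKM with DMSO and 20.2, 26.9 and 22.5 with GSK343. Replicate 2 was the highest in all 4 cultured groups, so that groups overlapped in the comparisons with GSK343 while the libraries of the same number kept an order in Pb.

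In Pb, *Fxyd5* differed between GSK343 and DMSO by 0.34 on the log2 scale (SE 0.15, interval 0.017 to 0.67), 1.27-fold, with an adjusted p of 0.164 by limma. With the replicate number as a block the same difference had an adjusted p of 0.00123 by limma. That fit called 23.2% of all genes against 12.9% without the block, and whether the numbers pair all libraries is not settled. Libraries of the same number gave ratios of 1.28, 1.24 and 1.31 in Pb and of 0.917, 1.09 and 1.01 in actB. With replicates 1 and 3 alone, without a block, the difference was 0.36 in Pb (adjusted p = 0.00690 by limma) and -0.054 in actB (adjusted p = 0.647 by limma). That fit called 1977 genes in Pb and 1740 in actB, against 1458 and 1170 with all 3 replicates. In actB the difference was 0.0037 (SE 0.15, interval -0.32 to 0.33, adjusted p = 0.999 by limma), and its sign turned under median scaling, quantile normalization, and TMM or RLE factors. The interaction was 0.34 (interval -0.12 to 0.80, adjusted p = 0.752 by limma), 0.34 with the block (adjusted p = 0.0563) and 0.37 with the block in edgeR (adjusted p = 0.0201, with 0.978% of genes called higher).

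*Fxyd5* was lower in Pb DMSO than in actB DMSO, where all Pb libraries lay below all actB libraries, as for 43.3% of genes. The difference was -0.40 (SE 0.15, interval -0.73 to -0.077, adjusted p = 0.0297 by limma). The call was lost with median scaling, quantile normalization, and TMM or RLE factors (-0.34 to -0.29, adjusted p up to 0.119), and without actB DMSO replicate 2, Pb DMSO replicate 1 or Pb DMSO replicate 3 (adjusted p up to 0.119). With the replicate block, in contrast, the difference was -0.40 by limma (adjusted p = 2.55e-05, with 45.7% of genes called lower) and -0.35 by edgeR with TMM factors (adjusted p = 2.65e-05, with 42.2% called lower). The median difference of all genes in this comparison was -0.12, and under median scaling, where *Fxyd5* differed by -0.29, it was -0.0048. Against nB the difference in Pb DMSO was -0.32 (interval -0.68 to 0.048, adjusted p = 0.0988 by limma), and -0.34 with the block (adjusted p = 2.16e-04, with 43.1% of genes called lower). Between actB DMSO and nB it was 0.087 (adjusted p = 0.646 by limma) and between Pb GSK343 and actB GSK343 -0.064 (adjusted p = 0.724 by limma), the latter with a sign that turned under every other scaling. The group means were 18.3 ± 3.09 RPKM in Pb DMSO, 22.6 ± 0.290 in nB, 23.2 ± 3.38 in Pb GSK343, 24.1 ± 2.85 in actB DMSO and 24.4 ± 4.70 in actB GSK343, of which the neighbours from nB upward overlapped.

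**Figure D4:**
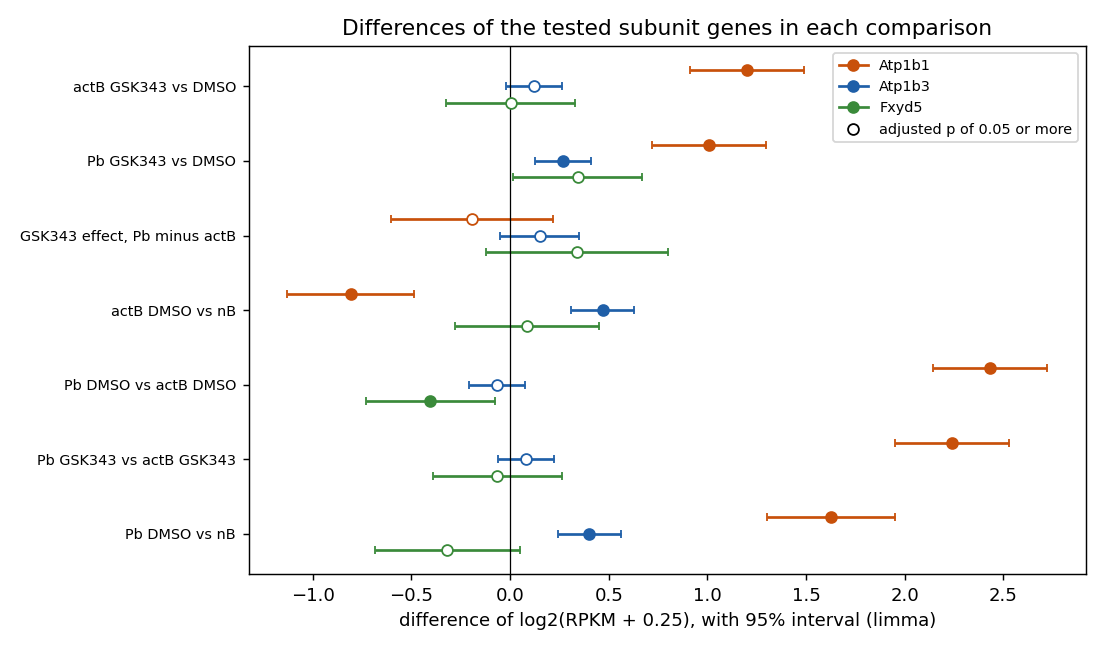
Differences in log2(RPKM + 0.25) (x axis) of *Atp1b1*, *Atp1b3* and *Fxyd5* in each comparison (y axis), with 95% intervals from limma, filled where the adjusted p over 11299 genes was under 0.05. The intervals of *Atp1b1* leave out 0 in every comparison but that of the GSK343 effects, and those differences run from -0.81 to 2.43, whereas the differences of *Atp1b3* and *Fxyd5* lie between -0.40 and 0.47.

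Over the 14 libraries Pearson's r of log2(RPKM + 0.25) was 0.388 between *Atp1b1* and *Atp1b3*, -0.255 between *Atp1b1* and *Fxyd5* and -0.028 between *Atp1b3* and *Fxyd5*. Among 10522 genes searched, those most like *Atp1b1* were *Nck2*, an adaptor of receptor signalling (r = 0.989), *Cd99l2*, a surface protein (0.987), and *AA415398* (0.986). *Nck2* averaged 3.71 RPKM in actB DMSO and 10.4 in Pb GSK343, the groups in which *Atp1b1* was lowest and highest. Most like *Atp1b3* were *Ngfrap1* (0.968), *Cox8a*, a subunit of cytochrome c oxidase (0.965), and *Ube2o*, a ubiquitin-conjugating enzyme (0.963). Most like *Fxyd5* were *Dnajc16* (0.846), *Thra*, a thyroid hormone receptor (0.842), and *9030617O03Rik* (0.835). The libraries share groups, culture numbers and depth, and the correlations are a description.

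Other genes of ion transport were read beside the share of all genes called with GSK343, 10.4% in actB and 12.9% in Pb. Of other P-type cation pumps, 10 of 17 were tested and 1 rose in actB, *Atp2b1*, a calcium pump of the plasma membrane (0.27, adjusted p = 0.00715 by limma), and 0 were called in Pb. Of sodium, potassium and chloride carriers, 17 of 24 were tested and 2 rose in actB, the potassium-chloride cotransporter gene *Slc12a4* (0.36, adjusted p = 0.0130) and the sodium-inositol cotransporter gene *Slc5a3* (0.31, adjusted p = 0.0421), and 0 were called in Pb. Of potassium channel genes, 9 of 29 were tested. *Kcna3*, the voltage-gated channel of lymphocytes, rose in actB (16.3 to 21.7 RPKM, 0.41, adjusted p = 0.00292) and in Pb (20.3 to 27.7 RPKM, 0.44, adjusted p = 0.00163), and *Kcnmb4*, an accessory subunit of calcium-activated channels, rose in Pb (1.5 to 2.38 RPKM, 0.59, adjusted p = 0.00220).

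Of 14 kinases and ligases that regulate cation transport, 10 were tested. *Prkca*, a protein kinase C, rose in actB (10.1 to 15.4 RPKM, 0.60, adjusted p = 2.30e-04 by limma) and in Pb (16.2 to 21.1 RPKM, 0.38, adjusted p = 0.00210), and *Sgk3*, a kinase of the family that regulates membrane transporters, rose in Pb (6.34 to 8.47 RPKM, 0.40, adjusted p = 0.0292). By limma 0 genes of the 4 lists were called lower with GSK343 and 0 in the comparison of the effects, where the shares of all genes were 2.16% lower in actB, 5% lower in Pb and 0.248%. The medians of the lists with GSK343 were 0.095, 0.14, 0.16 and 0.16 in actB, in the order given, against 0.028 over all genes, and 0.053, 0.066, -0.033 and 0.082 in Pb against 0.0031.

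Between Pb DMSO and actB DMSO, where 27.3% of all genes were called higher and 42.4% lower, the potassium channels had 6 higher and 2 lower of 9 (median 0.69, against -0.12 over all genes). The pumps had 3 higher and 3 lower of 10 (median 0.070), the carriers 4 higher and 7 lower of 17 (-0.14), and the kinases and ligases 2 higher and 5 lower of 10 (-0.19). Between actB DMSO and nB (40.9% of all genes higher and 36.3% lower) the pumps had 3 higher and 4 lower, the carriers 5 and 8, the channels 3 and 2, and the kinases and ligases 3 and 4. Between Pb DMSO and nB (39.5% higher and 41.1% lower) these counts were 4 and 6, 3 and 10, 5 and 2, and 2 and 6, and between Pb GSK343 and actB GSK343 (26.4% higher and 44.2% lower) they were 4 and 3, 2 and 8, 6 and 2, and 2 and 6.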

How the data were processed

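The libraries were made from polyA RNA (500 ng of total RNA) with a stranded kit and read as 50 bp pairs. The authors mapped the reads with TopHat2 to mm9 and counted those in the exons of each gene with GenomicRanges, and whether strand was used is not given in the sources used here. The deposited values are RPM, which the authors scaled to a total of 1000000 in each of the 15 columns, despite a table name that gives RPKM. Dividing by the step of 1 read gave a whole number for 100% of the values (within 0.0182 read), and these recovered counts make 19421830 to 26307413 reads per library. Genes without a symbol (92) hold at most 0.0905% of a library and were left out. Limits from reads cover counting error only.

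RPKM was computed as RPM per kilobase of the deposited length. A limma model (3.58.1, R 4.3.3) over the 14 libraries was used on log2(RPKM + 0.25), with trended eBayes and Benjamini-Hochberg adjustment over the 11299 genes tested, two-sided, at a threshold of 0.05. Every adjusted p comes from it unless edgeR is named. Fold changes on this scale understate those of low genes. The quasi-likelihood test of edgeR 4.0.16 was an alternative, on the recovered counts of 11146 genes that reached 3 RPM in 3 or more libraries, and the scripts were tested on simulated data. The study calls its replicates biological. The labels number them with the prefix m, with the same numbers in every group, and do not say whether m stands for a mouse or a culture. The p-values therefore measure the spread between these samples. The columns of nB replicates 1 and 2 gave a chi-square per degree of freedom of 0.00947, against at least 3.57 for other pairs, and were averaged.

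The replicate numbers served as the block. Deviations from the group mean correlated at 0.158 to 0.502 between cultured libraries of number 1 (6 pairs for each number). For number 2 the range was 0.435 to 0.713 and for number 3 it was 0.219 to 0.356. Between numbers it was -0.603 to 0.370 (36 pairs). Only number 2 lay wholly above that last range. Deviations from the mean of 3 libraries cancel out, so a replicate that stands apart moves the others together. The range between numbers is therefore no measure of unpaired libraries, and whether the numbers pair all libraries is not settled. The merged nB library was given equal parts of numbers 1 and 2 in the block.

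The members, the gene lists and the marker lists were chosen with earlier results of these data known. Genes named are the members, for each tested member the 3 genes with the highest r over the libraries (of those whose mean reached 2 RPKM somewhere), and up to 3 called genes of each ion transport list. Promoters come from RefSeq (3 of 4 members matched). Results for the alpha subunit genes are not reported here.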

Additional observations from a re-analysis of the deposited data

How the results depend on the processing

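Every call on *Atp1b1* kept its direction and its side of the threshold under the alternatives run, with adjusted p-values up to 0.0273 for GSK343 in actB and up to 0.00612 in Pb. These were pseudocounts of 1 and 0.05, no filter or at least 3 RPKM, median scaling, quantile normalization, robust eBayes, all 15 columns, the compared groups alone, the replicate block, edgeR with TMM or RLE factors, each library left out in turn and, added after seeing the data, the block in the cultured groups alone and numbers 1 and 3 alone. Leaving out 1 nB library leaves 1, which is assumed to vary like the other groups. For the changes below the cause was not tested.

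For *Atp1b3*, Pb DMSO against actB DMSO turned to 0.043 with median scaling and 0.045 with RLE, and was called at -0.068 with the block in the cultured groups alone. Pb GSK343 against actB GSK343 was called with median scaling (0.22), that block (0.083), TMM (0.17), RLE (0.22) and TMM with the block (0.17), and GSK343 in actB was called at 0.12 with that block. For *Fxyd5* in Pb DMSO against actB DMSO, the call was lost with no filter (-0.40, adjusted p = 0.0510 by limma), median scaling (-0.29), quantile normalization (-0.31), TMM (-0.34) and RLE (-0.29). Against nB it was called with the replicate block (-0.34), the compared groups alone (-0.32), edgeR with the block (-0.32) and numbers 1 and 3 alone (-0.45). With GSK343 in Pb it was called with the block (0.34), the block in the cultured groups alone (0.34), edgeR with the block (0.34) and numbers 1 and 3 alone (0.36), and its interaction with edgeR and the block (0.37). The replicate block changed no other call of a member in the limma fit of all groups. Differences of *Fxyd5* near 0 turned sign: Pb GSK343 against actB GSK343 to 0.075, 0.046, 0.015, 0.068 and 0.019 with median scaling, quantile normalization, TMM, RLE and TMM with the block, GSK343 in actB to -0.030, -0.013, -0.020, -0.021 and -0.029 in that order and to -0.054 with numbers 1 and 3 alone, and actB DMSO against nB to -0.0067 with those numbers. *Atp1b2*, untested under the filter, turned to -0.0040 for the interaction with TMM, to -0.0027 in Pb and -0.052 in actB for GSK343 with quantile normalization, and for actB DMSO against nB to 0.060, 0.0050, 0.22 and 0.086 with a pseudocount of 0.05, median scaling, quantile normalization and all 15 columns.

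Over all genes, the 28 calls of the interaction became 48 with all 15 columns, 4 with the compared groups alone, 18 with quantile normalization, 139 with the block, 83 with the block in the cultured groups alone, 233 with edgeR and the block and 146 with numbers 1 and 3 alone. The 1458 calls in Pb became 2626, 2740 and 2815 with the block, the block in the cultured groups alone and edgeR with the block, and the 1170 in actB became 2248, 2368 and 2717, and 386 with the compared groups alone. With median scaling the calls were 690 higher and 370 lower in actB, against 926 and 244, and 3813 higher and 3899 lower for Pb DMSO against actB DMSO, against 3086 and 4791.

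With 1 library left out, *Atp1b3* ran from 0.23 to 0.32 for GSK343 in Pb. *Fxyd5* ran from -0.53 to -0.31 for Pb DMSO against actB DMSO, from -0.45 to -0.22 for Pb DMSO against nB (called without Pb DMSO replicate 2, adjusted p = 0.0272 by limma), from -0.17 to 0.087 for Pb GSK343 against actB GSK343, from -0.0067 to 0.15 for actB DMSO against nB and from -0.15 to 0.099 for GSK343 in actB. *Atp1b2* ran from -0.14 to 0.18 for the interaction, from -0.10 to 0.22 and -0.022 to 0.087 for GSK343 in Pb and actB, and from -0.42 to 0.34 for actB DMSO against nB. The counts of called genes ran from 0 to 58 for the interaction (0 by limma in 5 fits, in which 758 to 907 genes had an unadjusted p under 0.05; edgeR, not run on these, gave 31 calls with all libraries), from 690 to 1304 for GSK343 in Pb and from 608 to 1363 in actB. *Atp1b2* had at most 51 reads in a library.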
